A study of Mus musculus with 9 samples.

Results

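The genes described here encode the translation initiation factors, the proteins that bring a ribosome to the start codon of an mRNA. They were taken as every gene symbol on the array that starts with Eif1, Eif2, Eif3, Eif4, Eif5 or Eif6, without the kinases named Eif2ak. This gave 47 of 22180 genes, each represented by the probe set with its single symbol and the highest mean over the arrays. RefSeq annotates 45 of the 47 as protein-coding, with Eif1-ps3 as a pseudogene and Eif2c5 as a long non-coding RNA that belongs to the Argonaute names. The 45 factor genes were 4 of eIF1, 2 of eIF2, 2 of the alternative tRNA-delivering factors eIF2A and eIF2D, 5 of eIF2B, 12 of eIF3, 13 of eIF4, 2 of the eIF4E-binding proteins and 5 of eIF5 and eIF6.

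RNA of cultured mouse podocytes, the cells that form the filtration slits of the glomerulus, was hybridised to single-colour arrays, 9 in all and 3 for each of 3 groups. The cells were differentiated for 11 days at 37 C. One group then received 2.5 µM thapsigargin with 10 µM forskolin for 16 hours, another 2.5 µM thapsigargin alone for 16 hours, and the controls received the vehicle DMSO. Thapsigargin blocks the calcium pump of the endoplasmic reticulum and causes protein folding stress there, while forskolin activates adenylyl cyclase and raises cAMP. No group received forskolin alone, so its effect was seen here on top of thapsigargin only. The labels name the replicates biological but give no culture or preparation, and the p-values therefore cover only how far these arrays lie apart.

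Initiation starts when eIF2, bound to GTP, delivers the initiator tRNA to the small ribosomal subunit, which eIF1, eIF1A, eIF3 and eIF5 help to assemble and scan. The small subunit is recruited to the mRNA cap by eIF4E, the scaffold eIF4G and the helicase eIF4A, and hypophosphorylated eIF4E-binding proteins keep eIF4E away from eIF4G. In endoplasmic reticulum stress the kinase PERK phosphorylates eIF2, which then blocks its own recycling factor eIF2B and slows translation, while the mRNA of the transcription factor ATF4 is translated better.

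The deposited values are log2 values made alike in distribution between arrays, so every change below is relative to the bulk of the genes. Fewer cells of a kind and less RNA per cell cannot be told apart. Array medians ran from 5.803 to 5.878, lower quartiles from 4.53 to 4.59 and upper quartiles from 7.61 to 7.75. Pearson correlations between arrays over all probe sets were 0.989 to 0.993 within groups and 0.966 to 0.992 between groups. Of the podocyte markers listed, 8 of 10 were measured, and all 8 lay above the array medians in DMSO, with Nphs1, the slit protein nephrin, at 6.55 and Wt1 at 6.80. The mean of these markers was 8.27 in thapsigargin plus forskolin, 8.49 in thapsigargin and 9.50 in DMSO. Single markers differed: Plce1 averaged 6.46 in thapsigargin plus forskolin, 7.75 in thapsigargin and 11.19 in DMSO, Synpo 7.23, 6.67 and 9.20, and Cd2ap 11.32, 11.57 and 11.34 in that order of groups. Among tubular markers, 5 of 6 lay above the array medians in DMSO, with Cdh16 at 11.16 and Aqp1 at 11.71, and the mean of the list was 7.17 in thapsigargin plus forskolin, 7.08 in thapsigargin and 8.36 in DMSO. Mean levels of the mesangial list were 7.56, 6.99 and 7.46 in that order of groups, those of the endothelial list 6.12, 6.19 and 6.38, and those of the leukocyte list 5.996, 5.67 and 5.97. Within the mesangial list, Mcam averaged 10.62, 8.04 and 8.77 and Pdgfrb 9.51, 9.13 and 10.36 in the same order. Above the array medians in DMSO lay 3 of 5 mesangial markers, 2 of 5 endothelial ones (Ehd3 at 10.37 and Kdr at 6.12) and 2 of 5 leukocyte ones (Csf1r at 7.98 and Cd14 at 7.97), while the endothelial Emcn at 3.88 and the leukocyte Ptprc at 3.78 lay below the lower quartile. The part of these shifts in the results on initiation factors was not tested. All 8 genes of the unfolded protein response that were checked were higher in both treatments than in DMSO, among them Ddit3, which encodes CHOP, with log2 changes of 2.75 in thapsigargin plus forskolin and 2.75 in thapsigargin.

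Promoter windows were looked at for what the initiation factor genes share beside their names. RefSeq windows of GRCm38.p6, from 250 bases before to 50 bases after an annotated start, were at hand for 36 of the 47 genes. Those without a window were Eif1a, Eif1-ps3, Eif2b3, Eif3e, Eif3h, Eif3i, Eif4e1b, Eif4e3, Eif4ebp1, Eif4g2 and Eif6. The letters CACGTG, an E-box that reads the same on both strands and is bound by MYC and its relatives and by TFEB, stood in windows of 9 of the 36 genes, or 25%. The share over all 27025 genes with a window was 8.09%. The 9 genes were Eif1b, Eif3a, Eif3f, Eif3k, Eif4a1, Eif4e, Eif4h, Eif5a and Eif5a2. This motif and TGACGTCA, the palindrome of cAMP-responsive elements, were added after the expression values had been seen. The 5 stretches below are shown because they carry the E-box in genes of the cap-binding complex and of eIF5A that moved in different directions, and because the last of them shows the pyrimidine-rich start of Eif3f. Capitals mark the E-box in the first 4 stretches, read 5′ to 3′ on the strand of the gene, and in the last one the C at the start of transcription with the pyrimidines that follow it.

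Eif4e (chr3:138527018-138527077, plus strand): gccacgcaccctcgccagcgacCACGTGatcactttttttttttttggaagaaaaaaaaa

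Eif4a1 (chr11:69672580-69672639, minus strand): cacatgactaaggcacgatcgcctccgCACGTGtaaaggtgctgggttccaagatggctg

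Eif5a (chr11:69921428-69921487, minus strand): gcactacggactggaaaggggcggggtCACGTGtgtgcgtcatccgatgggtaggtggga

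Eif5a2 (chr3:28781108-28781167, plus strand): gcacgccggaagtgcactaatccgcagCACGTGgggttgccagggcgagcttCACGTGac

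Eif3f (chr7:108934400-108934429, plus strand): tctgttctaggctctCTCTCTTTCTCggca

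Against DMSO, thapsigargin raised Eif4e and Eif5a and lowered Eif5a2, while Eif4a1, which has the same E-box letters, was lower on its brighter probe set and higher on the other. A start of C followed by 4 or more pyrimidines, the form found in mRNAs whose translation depends on mTORC1, stood at an annotated start in 2 of the 36 genes, Eif3f and Eif2c5. That is 5.56%, against 3.01% of all genes with a window. Neither TTGCATCA nor TGATGNAA, where N is any base, was found on either strand of the 36 genes' windows, against 1.03% and 4.51% of all genes. Both are spellings of sites bound by ATF4 complexes, and the second, read on the other strand, includes the first. TGACGTCA was found in none of the 36 and in 2.03% of all genes. At shares this low, 36 genes are too few to tell an absence of these 3 motifs from the level of all genes. Eif4ebp1, Eif2b3 and Eif6 had no window. These letters describe the windows alone and say nothing of binding.

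Most initiation factor genes were higher after thapsigargin. Of the 47, 25 were higher and 5 lower than in DMSO in a limma fit of all 9 arrays, with a call at p below 0.05 after Benjamini-Hochberg adjustment across the 22180 genes. That is 53.2% higher and 10.6% lower, against 18.2% higher and 16.9% lower over all genes. Among the 12999 genes above the median level, where 44 of the 47 lie, 29.9% were higher and 25.5% lower. The median log2 change was 0.23 over the 47 genes and −0.04 over all genes, and single genes ran from −0.52 to 1.65. Largest were the rises of Eif1ad, Eif4ebp1 and Eif2b3. Of the 47 genes, 17 passed the test with a log2 change of 0.5 or more in either direction. Over all 22180 genes 3997 did so, and 3814 of the 12999 above the median level.

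With forskolin added, the pattern against DMSO was of the same kind, and few genes were called against thapsigargin alone. Thapsigargin plus forskolin against DMSO gave 21 genes higher and 5 lower, or 44.7% and 10.6%, where all genes gave 17.9% and 16.7% and those above the median level 29.0% and 24.8%. The median over the 47 was 0.18. Both comparisons use the same DMSO arrays, so they are not independent of each other. Thapsigargin plus forskolin against thapsigargin alone gave 0 higher and 3 lower, where all genes gave 3.7% higher and 4.17% lower and those above the median level 5.97% and 6.91%. At an unadjusted p below 0.05 in the same limma fit, 0 of the 47 were higher and 19 lower, beside 1976 higher and 2232 lower of all 22180 genes. Among the 12999 genes above the median level, 1633 were higher and 1983 lower by that cut. The count of 3 was 1 without any single array of either treated group, 6 without DMSO replicate 1, 5 without DMSO replicate 3 and 13 with a trended, robust variance prior. The share of genes called lower is near that of all genes. A change below 0 was found in 37 of the 47, with a median of −0.11 against −0.01 over all genes. It was found in 11564 of all 22180 genes and in 6992 of the 12999 above the median level.

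**Figure D1:**
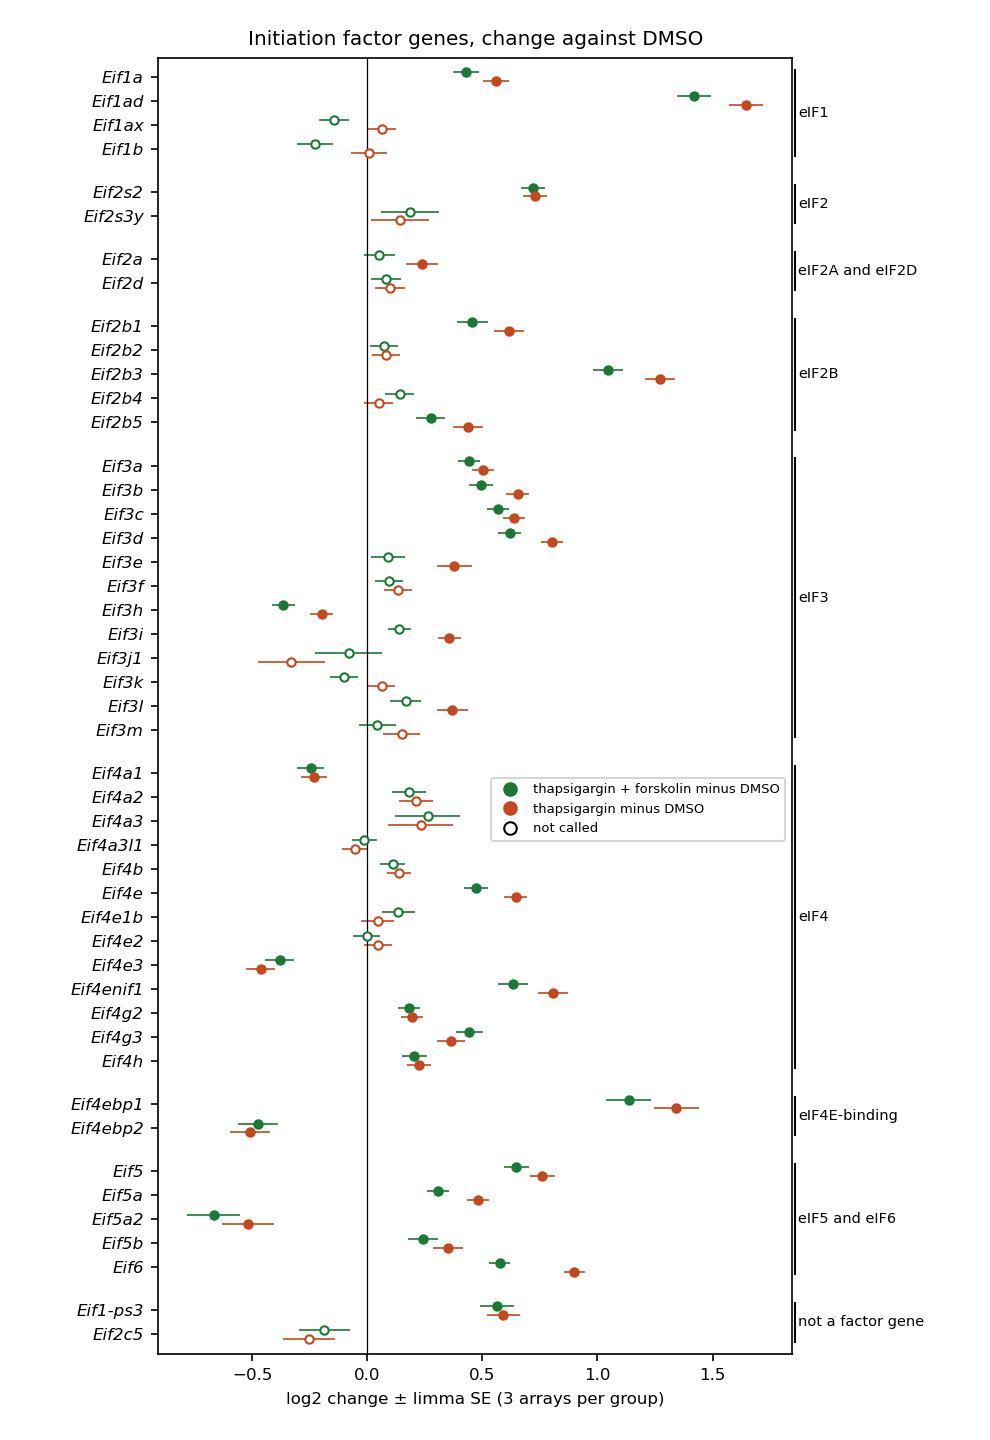
Log2 change of each of the 47 genes against DMSO, with the limma standard error, for thapsigargin plus forskolin (green) and thapsigargin (orange), 3 arrays per group. Filled points passed the test at adjusted p below 0.05. Most filled points lie right of 0, with Eif1ad at 1.65 and Eif2b3 at 1.27 after thapsigargin, and Eif5a2, Eif4ebp2 and Eif4e3 are the lowest of the filled points on the left.

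Of the eIF2 subunits, the beta subunit gene Eif2s2 was higher after both treatments. Its log2 values were 7.93, 8.003 and 7.99 in thapsigargin plus forskolin, 8.06, 7.96 and 7.93 in thapsigargin and 7.27, 7.24 and 7.26 in DMSO. The 3 DMSO arrays lay below all 6 treated arrays, and the treated groups overlapped. The log2 change was 0.73 ± 0.05 (SE) in thapsigargin, a 1.66-fold level (adjusted p = 3.93e-06), and 0.72 ± 0.05 in thapsigargin plus forskolin (adjusted p = 4.88e-06). Eif2s3y, the Y-linked gene of the gamma subunit, read 4.08, 3.997 and 3.65 in thapsigargin plus forskolin, 3.73, 3.82 and 4.05 in thapsigargin and 3.59, 3.83 and 3.75 in DMSO. These values lie below the lower quartile of the arrays and overlap between groups. Its change did not pass the test in thapsigargin (0.14 ± 0.13, adjusted p = 0.445) or in thapsigargin plus forskolin (0.19 ± 0.13, adjusted p = 0.3). The alpha subunit gene Eif2s1, whose product is phosphorylated in stress, was not analysed here, and the X-linked gamma gene Eif2s3x, found only on probe sets with several symbols, is not part of the counts.

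Eif2a encodes eIF2A, a separate factor that can deliver initiator tRNA and is not the alpha subunit of eIF2. Its values were 9.34, 9.51 and 9.51 in thapsigargin plus forskolin, 9.64, 9.56 and 9.71 in thapsigargin and 9.34, 9.38 and 9.47 in DMSO. All 3 thapsigargin arrays lay above the DMSO arrays, while the arrays with forskolin overlapped them. The change in thapsigargin was 0.24 ± 0.07 (adjusted p = 0.0241), a call that was lost on leaving out DMSO replicate 1 or 2 or thapsigargin replicate 1 or 3 (adjusted p up to 0.0902). With forskolin it was 0.05 ± 0.07 against DMSO (adjusted p = 0.608). The related Eif2d was not called, with a change of 0.10 in thapsigargin.

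The guanine nucleotide exchange factor eIF2B, which reloads eIF2 with GTP, split by subunit. Both genes of its catalytic pair, Eif2b3 (gamma) and Eif2b5 (epsilon), and Eif2b1 (alpha, a regulatory subunit) were higher after both treatments, while the regulatory subunits Eif2b2 (beta) and Eif2b4 (delta) were not called. Eif2b3 moved most. It read 8.70, 8.71 and 8.72 in thapsigargin plus forskolin, 8.95, 8.89 and 8.97 in thapsigargin and 7.67, 7.78 and 7.55 in DMSO. Every treated array lay above every DMSO array, and the arrays with forskolin lay below those with thapsigargin alone. The change was 1.27 ± 0.06 in thapsigargin, a 2.41-fold level (adjusted p = 3.35e-07), and 1.04 ± 0.06 in thapsigargin plus forskolin (adjusted p = 1.33e-06). Its difference between thapsigargin plus forskolin and thapsigargin, −0.23 ± 0.06, did not pass the test (adjusted p = 0.0689).

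Eif2b1 had values of 8.57, 8.66 and 8.58 in thapsigargin plus forskolin, 8.84, 8.68 and 8.77 in thapsigargin and 8.05, 8.20 and 8.19 in DMSO. Treated and DMSO arrays did not overlap, and the change was 0.62 ± 0.07 in thapsigargin (adjusted p = 5.03e-05) and 0.46 ± 0.07 in thapsigargin plus forskolin (adjusted p = 0.000424). For Eif2b5 the arrays gave 8.42, 8.46 and 8.51 in thapsigargin plus forskolin, 8.57, 8.59 and 8.72 in thapsigargin and 8.22, 8.10 and 8.24 in DMSO. Here too the DMSO arrays were the lowest, with changes of 0.44 ± 0.06 in thapsigargin (adjusted p = 0.000414) and 0.28 ± 0.06 in thapsigargin plus forskolin (adjusted p = 0.00767).

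The beta subunit gene Eif2b2 stood at 9.51, 9.55 and 9.47 in thapsigargin plus forskolin, 9.49, 9.63 and 9.45 in thapsigargin and 9.46, 9.45 and 9.41 in DMSO. Thapsigargin and DMSO arrays overlapped, and the change was 0.08 ± 0.06 (adjusted p = 0.352). Eif2b4 was at 6.88, 7.07 and 6.97 in thapsigargin plus forskolin, 6.89, 6.90 and 6.86 in thapsigargin and 6.88, 6.76 and 6.86 in DMSO. Its changes were 0.05 ± 0.06 in thapsigargin (adjusted p = 0.607) and 0.14 ± 0.06 in thapsigargin plus forskolin (adjusted p = 0.115), again without a call. The log2 change of Eif2b3 exceeded that of Eif2b2 by 1.19 in thapsigargin and by 0.97 in thapsigargin plus forskolin, with an exact permutation p of 0.1 each, two-sided, the smallest that 3 against 3 arrays allow. This pair was chosen with the changes known.

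**Figure D2:**
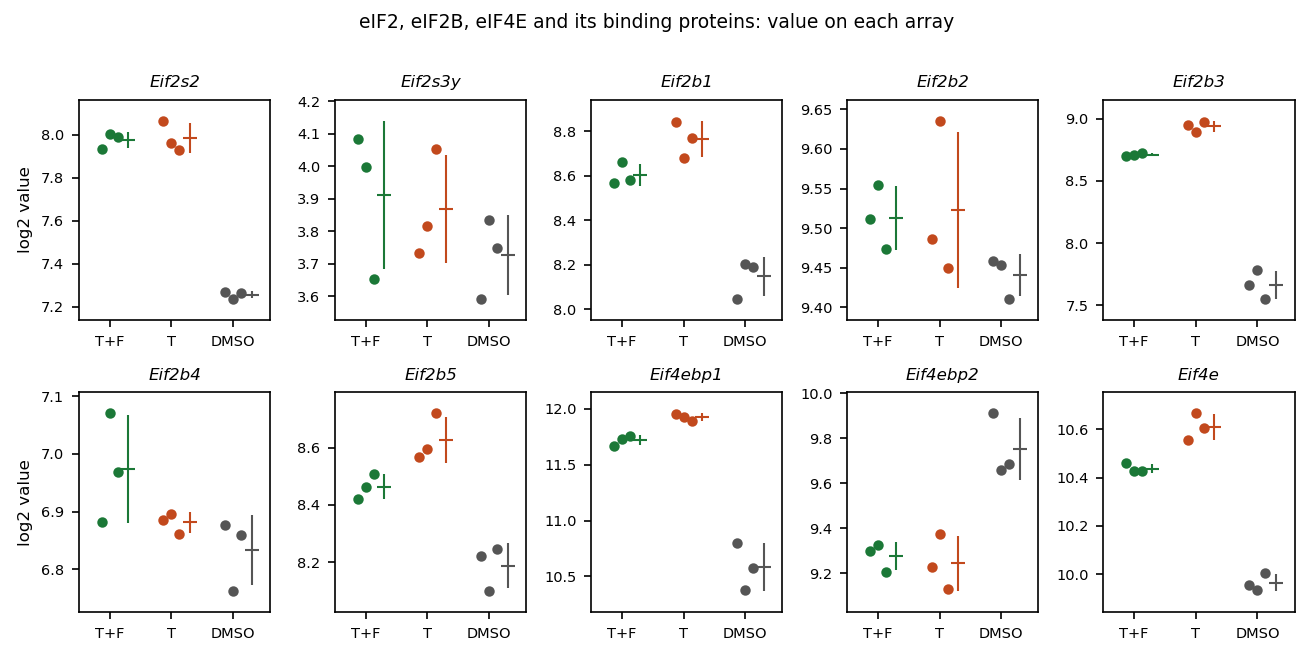
Log2 value on each array (points) with mean and SD (bar) of the eIF2, eIF2B and eIF4E-binding genes and Eif4e, in thapsigargin plus forskolin (T+F), thapsigargin (T) and DMSO, 3 arrays each, with a separate vertical scale for each gene. Eif2s2, Eif2b3, Eif4ebp1 and Eif4e have all treated arrays above the DMSO arrays, Eif4ebp2 has them below, Eif2s3y overlaps across all groups, and the thapsigargin arrays of Eif2b2 overlap those of DMSO.

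Among the 4 eIF1 genes, the change was uneven. Eif1ad, which encodes a protein with an eIF1A domain that takes part in ribosome assembly in human cells, had the largest change of all 47 genes. It read 10.16, 10.19 and 10.21 in thapsigargin plus forskolin, 10.47, 10.42 and 10.35 in thapsigargin and 8.61, 8.81 and 8.88 in DMSO. The groups did not overlap. The change was 1.65 ± 0.07 in thapsigargin, a 3.13-fold level (adjusted p = 1.69e-07), and 1.42 ± 0.07 in thapsigargin plus forskolin, a 2.68-fold level (adjusted p = 4.66e-07). Eif1a, one of the genes for the scanning factor eIF1A, was at 10.57, 10.54 and 10.47 in thapsigargin plus forskolin, 10.65, 10.66 and 10.67 in thapsigargin and 10.17, 10.11 and 10.02 in DMSO. Treated arrays lay above DMSO arrays, by 0.56 ± 0.06 in thapsigargin (adjusted p = 2.99e-05) and 0.43 ± 0.06 in thapsigargin plus forskolin (adjusted p = 0.000204). The X-linked eIF1A gene Eif1ax and the eIF1 relative Eif1b were not called, with thapsigargin changes of 0.06 and 0.01. Eif1 itself was not analysed here.

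The scaffold eIF3, the largest of the initiation factors, binds the small subunit and holds it open for mRNA. After thapsigargin 7 of its 12 measured genes were higher and 1 lower, with a median change of 0.36, or 58.3% higher and 8.33% lower beside 29.9% and 25.5% of all genes above the median level. After thapsigargin plus forskolin 4 (33.3%) were higher and 1 (8.33%) lower, with a median of 0.12 against DMSO, and the share of higher genes is near the 29.0% of all genes above the median level. The subunits a, b, c and i, which belong to the core with RNA-binding and beta-propeller subunits conserved in yeast, were all higher in thapsigargin. The 6 subunits e, f, h, k, l and m make up the rest of the octamer with a and c. Of these, 2 (33.3%) were higher and 1 (16.7%) was lower, and the share of higher genes is near that of all genes above the median level. In thapsigargin plus forskolin against DMSO, 3 of the 4 subunits a, b, c and i were higher, and 0 of the 6 others were higher and 1 lower. This division of subunits is not among the groups named at the start. In thapsigargin Eif3a, Eif3b and Eif3c rose more than any of the 6, while Eif3i (0.36) changed about as much as Eif3e (0.38) and Eif3l (0.37). Eif3d is in neither set.

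Eif3d, whose product can bind the cap of some mRNAs in human cells, had the largest change among the eIF3 genes. Its values were 11.63, 11.62 and 11.64 in thapsigargin plus forskolin, 11.81, 11.80 and 11.84 in thapsigargin and 10.99, 10.98 and 11.07 in DMSO. The 3 groups were apart, thapsigargin highest and DMSO lowest. The change was 0.80 ± 0.05 in thapsigargin (adjusted p = 1.19e-06) and 0.62 ± 0.05 in thapsigargin plus forskolin (adjusted p = 7.66e-06). A second, dimmer probe set of Eif3d went the same way, with a difference of 0.54 between thapsigargin and DMSO. The core subunit gene Eif3b was at 11.18, 11.21 and 11.18 in thapsigargin plus forskolin, 11.31, 11.40 and 11.34 in thapsigargin and 10.64, 10.71 and 10.74 in DMSO. Its DMSO arrays were the lowest, and the changes were 0.65 ± 0.05 in thapsigargin (adjusted p = 6.24e-06) and 0.49 ± 0.05 in thapsigargin plus forskolin (adjusted p = 4.63e-05).

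Eif3c, another core subunit, was measured at 11.90, 11.88 and 11.93 in thapsigargin plus forskolin, 11.98, 11.94 and 11.99 in thapsigargin and 11.30, 11.36 and 11.34 in DMSO. Its treated arrays were again apart from DMSO, with changes of 0.64 ± 0.05 in thapsigargin (adjusted p = 4.6e-06) and 0.57 ± 0.05 in thapsigargin plus forskolin (adjusted p = 1.11e-05). Eif3a, the largest core subunit, gave 12.02, 11.97 and 12.03 in thapsigargin plus forskolin, 12.06, 12.05 and 12.10 in thapsigargin and 11.55, 11.59 and 11.55 in DMSO. Here the change was 0.50 ± 0.05 in thapsigargin (adjusted p = 1.89e-05) and 0.44 ± 0.05 in thapsigargin plus forskolin (adjusted p = 5.07e-05), with no overlap between treated and DMSO arrays.

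Eif3e and Eif3i were higher in thapsigargin and lower again when forskolin was added. Eif3i, a beta-propeller subunit, read 9.74, 9.78 and 9.76 in thapsigargin plus forskolin, 9.99, 9.98 and 9.96 in thapsigargin and 9.67, 9.57 and 9.62 in DMSO. All 3 groups were apart. The change was 0.36 ± 0.05 in thapsigargin against DMSO (adjusted p = 0.000261), −0.22 ± 0.05 in thapsigargin plus forskolin against thapsigargin (adjusted p = 0.0253) and 0.14 ± 0.05 in thapsigargin plus forskolin against DMSO, which was not called (adjusted p = 0.053). Eif3e, an octamer subunit, read 9.96, 9.95 and 10.03 in thapsigargin plus forskolin, 10.22, 10.26 and 10.33 in thapsigargin and 9.75, 9.90 and 10.03 in DMSO. The thapsigargin arrays stood above the others, and the arrays with forskolin overlapped those of DMSO. Its change was 0.38 ± 0.07 in thapsigargin against DMSO (adjusted p = 0.00266), −0.29 ± 0.07 in thapsigargin plus forskolin against thapsigargin (adjusted p = 0.0461) and 0.09 ± 0.07 in thapsigargin plus forskolin against DMSO (adjusted p = 0.397). Both calls against thapsigargin were lost without any single array of the thapsigargin or the thapsigargin plus forskolin group, with adjusted p up to 0.156 for Eif3e and 0.0966 for Eif3i. Eif3e also lost it without DMSO replicate 2, and Eif3i with replicate number as a block.

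Eif3h, another octamer subunit, was the one eIF3 gene called lower against DMSO. Its thapsigargin mean was 11.11 ± 0.01 (SD, n = 3) and its DMSO mean 11.30 ± 0.06, a change of −0.20 ± 0.05 (adjusted p = 0.0121). With forskolin the mean was 10.94 ± 0.03, a change of −0.36 ± 0.05 against DMSO (adjusted p = 0.000313). The change of Eif3d exceeded that of Eif3h by 1.0 in thapsigargin and 0.98 in thapsigargin plus forskolin (exact permutation p = 0.1 each). The pair was chosen with the changes known, and 0.1 is the smallest p that 3 against 3 arrays allow, so this p adds no evidence. Eif3l was higher in thapsigargin by 0.37 ± 0.07 (adjusted p = 0.0017) and was not called in thapsigargin plus forskolin (0.17, adjusted p = 0.0878). Eif3f, Eif3k, Eif3m and the loosely bound Eif3j1 were not called, with thapsigargin changes of 0.13, 0.06, 0.15 and −0.33. Eif3g was not analysed here.

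**Figure D3:**
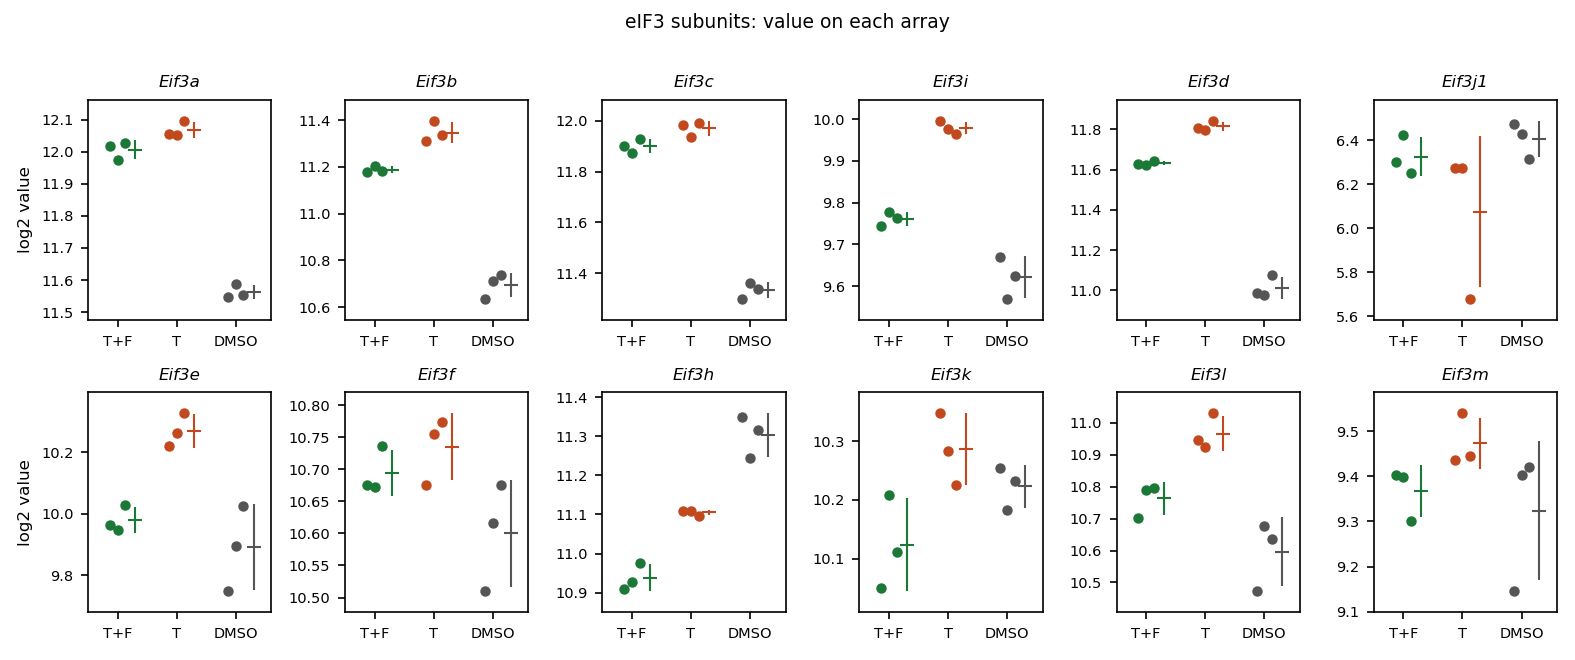
Log2 value on each array (points) with mean and SD (bar) of the 12 eIF3 genes in thapsigargin plus forskolin (T+F), thapsigargin (T) and DMSO, 3 arrays each, with a separate vertical scale for each gene. Eif3a, Eif3b, Eif3c and Eif3d are above DMSO in both treatments, Eif3e and Eif3i are highest in thapsigargin alone, and Eif3h is highest in DMSO.

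The eIF4 genes were less uniform than their number of rises says. After thapsigargin 5 of 13 were higher and 2 lower, and the same counts were found after thapsigargin plus forskolin. These shares, 38.5% and 15.4%, are near the 29.9% and 25.5% of all genes above the median level after thapsigargin, and 1 of the 2 lower genes is Eif4a1, whose probe sets disagree. The cap-binding protein gene Eif4e was higher. It read 10.46, 10.43 and 10.43 in thapsigargin plus forskolin, 10.56, 10.67 and 10.61 in thapsigargin and 9.96, 9.94 and 10.003 in DMSO. The groups did not overlap, with changes of 0.65 ± 0.05 in thapsigargin, a 1.56-fold level (adjusted p = 6.35e-06), and 0.47 ± 0.05 in thapsigargin plus forskolin (adjusted p = 5.84e-05). Eif4enif1 encodes 4E-T, which carries eIF4E into the nucleus and into processing bodies. Its arrays gave 9.48, 9.39 and 9.53 in thapsigargin plus forskolin, 9.70, 9.54 and 9.70 in thapsigargin and 8.82, 8.80 and 8.89 in DMSO. All treated arrays lay above DMSO, by 0.81 ± 0.07 in thapsigargin (adjusted p = 7.19e-06) and 0.63 ± 0.07 in thapsigargin plus forskolin (adjusted p = 4.14e-05). Eif4e3, a cap-binding relative of eIF4E, was lower, with changes of −0.46 ± 0.06 in thapsigargin (adjusted p = 0.000252) and −0.38 ± 0.06 in thapsigargin plus forskolin (adjusted p = 0.000998). Eif4e2, a cap-binding repressor, and Eif4e1b, a form of oocytes that lay below the median level, were not called.

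Of the scaffold and helicase genes, Eif4g3 was higher by 0.36 ± 0.06 in thapsigargin (adjusted p = 0.000896) and 0.44 ± 0.06 in thapsigargin plus forskolin (adjusted p = 0.000265). Eif4g2, whose product DAP5 lacks the eIF4E site, was higher by 0.19 ± 0.05 in thapsigargin (adjusted p = 0.0106), and Eif4h, a helper of the helicase, by 0.23 ± 0.05 (adjusted p = 0.00777). Eif4a1, the main eIF4A helicase gene, was at 12.91, 12.95 and 12.85 in thapsigargin plus forskolin, 12.98, 12.93 and 12.85 in thapsigargin and 13.19, 13.16 and 13.10 in DMSO. These DMSO arrays were the highest, and the changes were −0.23 ± 0.06 in thapsigargin (adjusted p = 0.00999) and −0.25 ± 0.06 in thapsigargin plus forskolin (adjusted p = 0.00728). The second, dimmer probe set of Eif4a1 went the other way, with means of 8.98 ± 0.02 in thapsigargin plus forskolin, 9.14 ± 0.01 in thapsigargin and 8.76 ± 0.03 in DMSO (SD, n = 3 each). With the mean of both probe sets the change was 0.08 in thapsigargin (adjusted p = 0.28), so no direction is given for this gene, although the brighter probe set counts it among the genes called lower. Eif4a2, Eif4a3, Eif4a3l1 and Eif4b were not called, and Eif4g1 was not analysed here.

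The genes of the eIF4E-binding proteins moved in opposite directions. Eif4ebp1 read 11.67, 11.73 and 11.75 in thapsigargin plus forskolin, 11.96, 11.93 and 11.89 in thapsigargin and 10.80, 10.38 and 10.57 in DMSO. Every treated array lay above every DMSO array, and the arrays with forskolin lay below those with thapsigargin alone. The change was 1.34 ± 0.10 in thapsigargin, a 2.54-fold level (adjusted p = 3.22e-06), and 1.14 ± 0.10 in thapsigargin plus forskolin, a 2.2-fold level (adjusted p = 1.11e-05). Its difference between thapsigargin plus forskolin and thapsigargin, −0.21 ± 0.10, did not pass the test (adjusted p = 0.286). Eif4ebp2 was at 9.30, 9.32 and 9.21 in thapsigargin plus forskolin, 9.23, 9.37 and 9.13 in thapsigargin and 9.91, 9.66 and 9.69 in DMSO. All treated arrays lay below all DMSO arrays, with changes of −0.51 ± 0.09 in thapsigargin (adjusted p = 0.00112) and −0.47 ± 0.09 in thapsigargin plus forskolin (adjusted p = 0.00186). The change of Eif4ebp1 exceeded that of Eif4ebp2 by 1.85 in thapsigargin and 1.61 in thapsigargin plus forskolin, and that of Eif4e by 0.70 and 0.66 in the same order, each with an exact permutation p of 0.1. Both pairs were chosen with the changes known, and 0.1 is the smallest p that 3 against 3 arrays allow. Neither the amount of the proteins nor their phosphorylation was measured.

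All 5 genes of eIF5 and eIF6 were called, 4 higher and 1 lower in either treatment. Of all genes above the median level, 29.9% were higher and 25.5% lower in thapsigargin. In thapsigargin plus forskolin these shares were 29.0% and 24.8%. Eif6, whose product keeps the large subunit from joining too early and takes part in its assembly, moved most of the 5 in thapsigargin. It read 10.02, 10.05 and 10.02 in thapsigargin plus forskolin, 10.38, 10.36 and 10.32 in thapsigargin and 9.44, 9.47 and 9.45 in DMSO. The 3 groups were apart, with thapsigargin highest and DMSO lowest. The change was 0.90 ± 0.05 in thapsigargin, a 1.87-fold level (adjusted p = 3.78e-07), and 0.57 ± 0.05 in thapsigargin plus forskolin (adjusted p = 8.03e-06). Against thapsigargin alone, thapsigargin plus forskolin gave a lower level, with a change of −0.32 ± 0.05 (adjusted p = 0.00252), a call that held under all 18 alternatives. Eif5, which triggers GTP hydrolysis by eIF2, was at 11.42, 11.35 and 11.35 in thapsigargin plus forskolin, 11.51, 11.44 and 11.52 in thapsigargin and 10.79, 10.73 and 10.67 in DMSO. The treated arrays lay above DMSO, by 0.76 ± 0.05 in thapsigargin (adjusted p = 3.17e-06) and 0.65 ± 0.05 in thapsigargin plus forskolin (adjusted p = 1.04e-05).

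The genes of eIF5A, the factor that carries hypusine and helps ribosomes at difficult peptide bonds, moved apart. Eif5a was higher by 0.48 ± 0.05 in thapsigargin (adjusted p = 3.26e-05) and by 0.31 ± 0.05 in thapsigargin plus forskolin (adjusted p = 0.000726). Eif5a2, the gene of its second form, read 7.79, 8.08 and 7.72 in thapsigargin plus forskolin, 7.87, 8.09 and 8.08 in thapsigargin and 8.48, 8.40 and 8.71 in DMSO. All treated arrays were below DMSO, with changes of −0.52 ± 0.12 in thapsigargin (adjusted p = 0.00572) and −0.67 ± 0.12 in thapsigargin plus forskolin (adjusted p = 0.00133). Eif5b, which joins the ribosomal subunits, was higher by 0.35 ± 0.07 in thapsigargin (adjusted p = 0.00219) and by 0.24 ± 0.07 in thapsigargin plus forskolin (adjusted p = 0.0181), a call lost without DMSO replicate 1 or thapsigargin plus forskolin replicate 1 (adjusted p up to 0.0522). The pseudogene Eif1-ps3 was at 9.85, 9.82 and 10.05 in thapsigargin plus forskolin, 9.87, 9.98 and 9.96 in thapsigargin and 9.28, 9.40 and 9.35 in DMSO. Its treated arrays lay above DMSO by 0.59 ± 0.07 in thapsigargin (adjusted p = 0.000121) and 0.56 ± 0.07 in thapsigargin plus forskolin (adjusted p = 0.000186), and probes of a pseudogene can also bind RNA of its parent gene. Eif2c5 was not called.

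**Figure D4:**
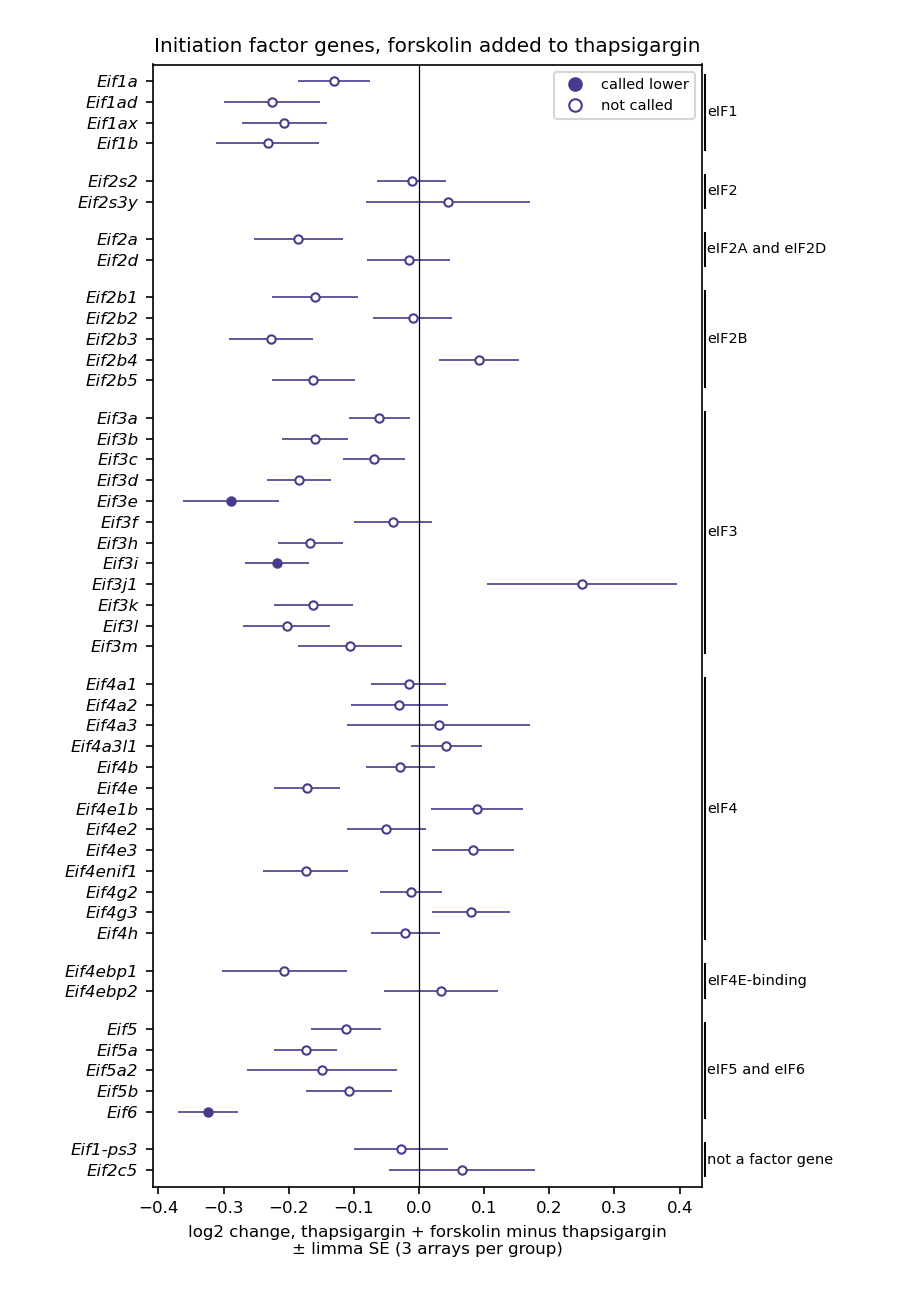
Log2 change of each of the 47 genes in thapsigargin plus forskolin against thapsigargin, with the limma standard error, 3 arrays per group. Filled points (Eif3e, Eif3i and Eif6) passed the test at adjusted p below 0.05, and 37 of the 47 points lie left of 0. Of all 22180 genes, 11564 had a change below 0.

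Genes that act on the initiation factors were read from lists of the pathway. Of 13 genes for the kinases and phosphatases of eIF2 and their regulators, 6 (46.2%) were higher and 2 (15.4%) lower in thapsigargin than in DMSO, beside 18.2% and 16.9% of all genes and 29.9% and 25.5% of those above the median level. The share called lower is near that of all genes. Ppp1r15a, which encodes the stress-induced GADD34 that removes the phosphate from eIF2, changed by 2.76 ± 0.12 in thapsigargin, a 6.76-fold level (adjusted p = 1.07e-07), and by 2.83 ± 0.12 in thapsigargin plus forskolin (adjusted p = 1.04e-07). Its constitutive relative Ppp1r15b changed by 0.64 ± 0.07 in thapsigargin and 0.69 ± 0.07 in thapsigargin plus forskolin. Dnajc3, a co-chaperone of the endoplasmic reticulum, changed by 1.99 ± 0.05 and 1.95 ± 0.05 in the same comparisons. Eif2ak3, the gene of PERK, was higher by 0.86 ± 0.05 in thapsigargin against DMSO (adjusted p = 1.19e-06) and higher again by 0.22 ± 0.05 in thapsigargin plus forskolin against thapsigargin (adjusted p = 0.0369). In thapsigargin plus forskolin against DMSO 7 of the 13 (53.8%) were higher and 3 (23.1%) lower, beside 17.9% and 16.7% of all genes and 29.0% and 24.8% of those above the median level.

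On the eIF4E side, 17 of 20 listed genes of mTORC1 and of the MNK kinases, which phosphorylate eIF4E, were measured. In thapsigargin 9 (52.9%) were higher and 6 (35.3%) lower than in DMSO, beside 29.9% and 25.5% of all genes above the median level. In thapsigargin plus forskolin the counts were 9 (52.9%) and 5 (29.4%), beside 29.0% and 24.8% of those genes. The MNK genes moved in opposite directions. Mknk1 averaged 9.83 ± 0.01 in thapsigargin plus forskolin, 9.40 ± 0.01 in thapsigargin and 7.75 ± 0.10 in DMSO (SD, n = 3 each), a change of 1.66 ± 0.06 in thapsigargin against DMSO (adjusted p = 4.43e-08) and 0.43 ± 0.06 in thapsigargin plus forskolin against thapsigargin (adjusted p = 0.00214). Mknk2 averaged 9.96 ± 0.07 in thapsigargin plus forskolin, 9.04 ± 0.08 in thapsigargin and 10.51 ± 0.04 in DMSO. Its change was −1.48 ± 0.06 in thapsigargin against DMSO (adjusted p = 1.17e-07) and 0.92 ± 0.06 in thapsigargin plus forskolin against thapsigargin (adjusted p = 2.91e-05), so it was lowest in thapsigargin alone. Of the mTORC1 inhibitors, Sesn2 changed by 1.21 ± 0.07 and Deptor by −1.06 ± 0.06 in thapsigargin against DMSO (adjusted p = 9.01e-07 and 8.73e-07). The other sestrin genes, Sesn1 and Sesn3, were lower, with changes of −0.86 and −0.63 in the same comparison (adjusted p = 0.000234 and 1.17e-05). Forskolin added to thapsigargin gave 3 of the 17 (17.6%) higher and 3 (17.6%) lower, beside 5.97% and 6.91% of all genes above the median level. Sesn3 was higher by 0.33 ± 0.06 than in thapsigargin alone (adjusted p = 0.00553) but still lower than in DMSO, by −0.30 (adjusted p = 0.00176). Larp1, which represses mRNAs with pyrimidine starts, was lower, with a change of −0.31 ± 0.05 against thapsigargin alone (adjusted p = 0.00414). Against DMSO it was higher in both treatments, by 0.70 ± 0.05 in thapsigargin (adjusted p = 2.82e-06) and 0.39 ± 0.05 in thapsigargin plus forskolin (adjusted p = 0.00017).

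Among 13 helpers of initiation and poly(A)-binding proteins, 10 (76.9%) were higher and 0 lower in thapsigargin than in DMSO, and likewise in thapsigargin plus forskolin. Of all genes above the median level, 29.9% were higher and 25.5% lower in thapsigargin and 29.0% and 24.8% in thapsigargin plus forskolin. Among the 10 was Bzw2, whose product resembles part of eIF5 and competes with it, so the count is not of genes that aid initiation only. Bzw2 changed by 1.42 ± 0.07 in thapsigargin against DMSO (adjusted p = 4.59e-07). The poly(A)-binding protein gene Pabpc4 changed by 1.25 ± 0.05, the RNA acetyltransferase gene Nat10 by 0.94 ± 0.05 and the helicase gene Dhx29 by 0.75 ± 0.08 in the same comparison. Forskolin added to thapsigargin gave 4 of the 13 (30.8%) lower and 1 (7.69%) higher, beside 6.91% and 5.97% of all genes above the median level. The 4 were Bzw2 (−0.48 ± 0.07), Denr (−0.41 ± 0.06), Nat10 (−0.33 ± 0.05) and Pabpc4 (−0.31 ± 0.05), with adjusted p of 0.00386, 0.00209, 0.00248 and 0.00555. Denr encodes a factor for ribosome recycling and re-initiation. All 4 genes were still called higher in thapsigargin plus forskolin than in DMSO.

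Listed genes of elongation and termination were also mostly higher, 12 of 14 in thapsigargin and 10 of 14 in thapsigargin plus forskolin, with 0 lower in either. These shares of 85.7% and 71.4% stand beside 29.9% and 29.0% of all genes above the median level that were higher in the same comparisons. The list also holds Eef2k, Eef1e1, Dhps and Dohh, which are not genes of the factors themselves and were all higher in thapsigargin. Eef1e1, of the complex of tRNA synthetases, changed by 1.12 ± 0.06 in thapsigargin against DMSO (adjusted p = 5.67e-07) and by −0.39 ± 0.06 in thapsigargin plus forskolin against thapsigargin (adjusted p = 0.00426). The termination factor gene Etf1 changed by 0.95 ± 0.05 in thapsigargin, and Dhps, which makes the hypusine of eIF5A, by 0.81 ± 0.06. Eef2k, the kinase that inhibits elongation, was higher by 0.70 ± 0.06 in thapsigargin against DMSO (adjusted p = 1.04e-05) and by 0.39 ± 0.06 in thapsigargin plus forskolin against thapsigargin (adjusted p = 0.00384). These lists were chosen with earlier results known, and their medians in thapsigargin, 0.04 for the eIF2 list, 0.26 for the mTORC1 and MNK list, 0.65 for the helpers and 0.44 for elongation and termination, stand beside −0.04 for all genes.

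**Figure D5:**
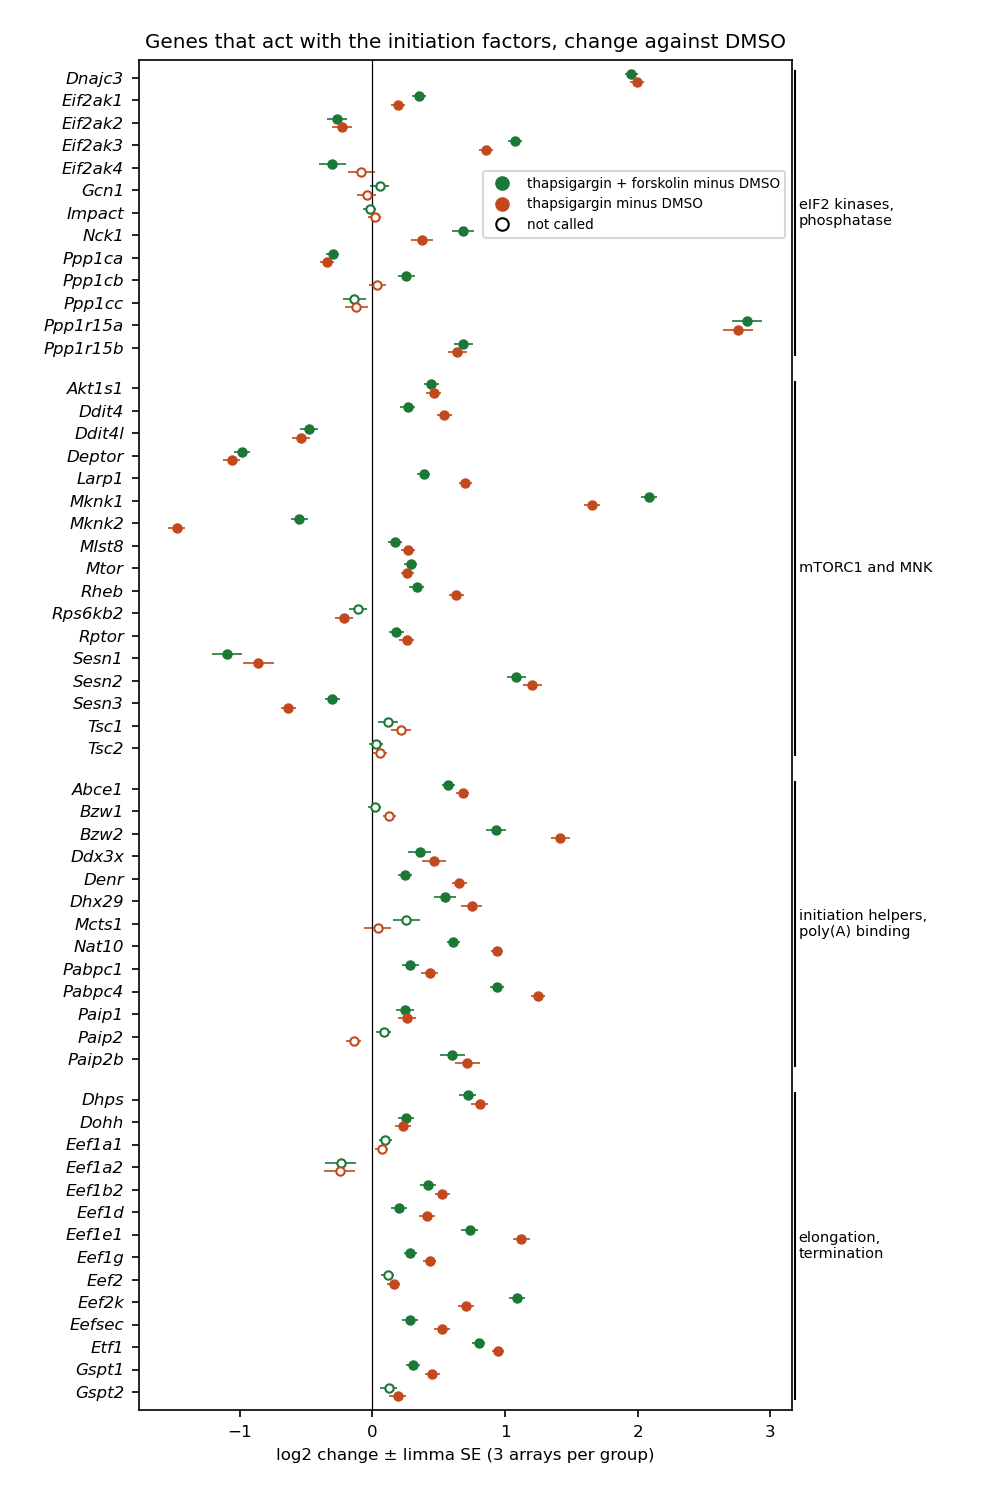
Log2 change against DMSO, with the limma standard error, of genes that act with the initiation factors, for thapsigargin plus forskolin (green) and thapsigargin (orange), 3 arrays per group. Filled points passed the test at adjusted p below 0.05. Ppp1r15a is farthest right, Mknk1 and Mknk2 lie on opposite sides of 0, and elongation and termination genes that passed the test lie right of 0.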

How the data were processed

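The 9 arrays, each of 1 colour, measured RNA from podocytes of mouse grown in culture. The deposited values are log2 levels of probe sets. According to the submitters' processing notes the authors used the tools RMA and affy; neither versions nor the build of the annotation were named there. RMA corrects background, equalises the probe distributions of the arrays and summarises probe sets by median polish, so changes in total RNA cannot be seen. Background was not checked, since no scanner output was read, and the number of arrays limits the precision.

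Of 41345 probe sets, 23521 carried 1 gene symbol, 1814 several and 16010 none. The 47 genes matched RefSeq (GRCm38.p6) by Entrez ID, and 3 had more than 1 probe set. Groups came from the sample titles. All 9 arrays entered a fit of 3 group means with 6 residual degrees of freedom (limma 3.58.1, R 4.3.3), and calls were made at p below 0.05 after Benjamini-Hochberg adjustment across the 22180 genes. Tests of pairs of genes were exact permutations over arrays. The procedure was tested on simulated data. Each draw changed 200 of the 22180 genes. For thapsigargin plus forskolin against thapsigargin the procedure called 8.8% of simulated log2 changes of 0.25 and 59.2% of those of 0.5. On the arrays themselves 1745 of 22180 genes were called in that comparison. The adjustment thus worked on another mix of genes, and the simulated rates do not give the share missed among the 47. Among the 47, Eif3i was called at −0.22 and Eif2b3 was not at −0.23, so a small change can go without a call. Python 3.11.15 and matplotlib 3.10.9 drew the figures.

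Values on every array are given for all eIF2, eIF2B and eIF4E-binding genes, for genes called between the treatments or called against DMSO with a log2 change of 0.5 or more in either direction, and for the gene with the highest mean in each other group. Lists of other pathway genes give up to 4 called genes with the largest change, with Sesn1 and Sesn3 given beside Sesn2. The cell type markers were named after their values were seen. Members and lists were chosen with earlier results of these data known. Alternatives were the arrays in the fit, variance prior, array weights, scaling, level filter, probe set choice, a within-group component, leaving out single arrays, and a block for replicate number. Replicate numbers were checked as pairs. Correlations of same-numbered deviations ran from −0.07 to 0.25, and those of differently numbered ones from −0.30 to 0.25. The replicate 3 pairs were all positive, at 0.21, 0.23 and 0.18. Whether the numbers mark pairs was not settled by this check. The main fit did not use them, and the block for replicate number did. Protein sequences were not used here.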

Additional observations from a re-analysis of the deposited data

Results flagged for a closer look

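Probe sets that carry more than 1 gene symbol stand outside the counts over the 47 genes, and Eif2s3x, Eif3j2 and Eif4ebp3 lie only on such probe sets. Those listed here were picked because all their thapsigargin arrays lay above all DMSO arrays, with no test across genes. The share of all probe sets that do so was not counted. Probe sets that Eif4a2 shares with Snord2, Snora81 and Rfc4 overlapped between these groups, with differences of 0.19, 0.401 and 0.078. The 2 probe sets of Eif2s3x, the X-linked gene of the eIF2 gamma subunit, and Gm2223 averaged 7.96 ± 0.08 and 7.57 ± 0.23 in thapsigargin against 6.84 ± 0.30 and 6.94 ± 0.15 in DMSO (SD, n = 3 each), differences of 1.115 and 0.635. In thapsigargin plus forskolin they averaged 7.55 ± 0.06 and 7.27 ± 0.10. The probe set of Eif3j2 and Eif3j1 averaged 9.27 ± 0.05 in thapsigargin plus forskolin, 9.53 ± 0.09 in thapsigargin and 8.46 ± 0.17 in DMSO, a difference of 1.07 for thapsigargin. The probe set with Eif3j1 alone did not rise, with a log2 change of −0.33 that was not called. For Eif4ebp3, another eIF4E-binding gene, and its neighbour Ankhd1 the means were 7.15 ± 0.09 in thapsigargin and 6.66 ± 0.10 in DMSO, a difference of 0.486. Eif4a3 and Eif4a3l1, which have probe sets of their own among the 47, also share one with Gm5576. It averaged 9.63 ± 0.06 in thapsigargin and 9.42 ± 0.05 in DMSO, a difference of 0.207. Which of the genes on a shared probe set carries the signal cannot be told apart here.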

How the results depend on the processing

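Over 18 alternatives, 28 of 30 calls for thapsigargin against DMSO held, 22 of 26 for thapsigargin plus forskolin against DMSO, and 1 of 3 (Eif6) for thapsigargin plus forskolin against thapsigargin. Leaving out each array in turn gave 24 to 26 genes higher and 5 lower for thapsigargin, and 19 to 22 higher and 5 to 6 lower for thapsigargin plus forskolin, against DMSO. The count called lower against thapsigargin alone, 3, was the least stable: 7 with only the 6 arrays compared, 13 with a trended robust prior, 8 with array weights, 5 after centring on medians, 10 with only genes above the median level, 6 with a within-group component as covariate, and 1 to 6 on leaving out arrays (1 without any thapsigargin or thapsigargin plus forskolin array, 6 without DMSO replicate 1, 5 without DMSO replicate 3). With replicate number as a block, counts were 25 higher and 5 lower in thapsigargin and 21 and 5 in thapsigargin plus forskolin against DMSO, and 0 and 2 against thapsigargin. Eif4a1 changed by 0.076 in thapsigargin with the mean of its probe sets, since the probe sets move in opposite directions, and also lost its calls when the values were normalized again. In thapsigargin plus forskolin against DMSO, Eif4g2 and Eif4h lost their calls without thapsigargin plus forskolin replicate 2, and Eif5b without DMSO replicate 1 or thapsigargin plus forskolin replicate 1, with limma's adjusted p up to 0.0539. Other sign changes were of genes without a call. Normalizing again gave −0.042 for Eif1b, 0.013 for Eif4a3l1 and −0.018 for Eif4e2 in thapsigargin, 0.059 for Eif4a3l1 in thapsigargin plus forskolin, both against DMSO, and 0.003 for Eif2b2, 0.005 for Eif4b and 0.004 for Eif4g2 against thapsigargin. Array weights gave −0.013 for Eif1b in thapsigargin and 0.004 for Eif4a3l1 and 0.012 for Eif4e2 in thapsigargin plus forskolin, and centring gave 0.001 for Eif4e2 against DMSO and −0.004 for Eif4a3 against thapsigargin. Leaving out arrays gave −0.053 to 0.064 for Eif1b and −0.004 to 0.107 for Eif4e1b in thapsigargin, and −0.045 to 0.093 for Eif3m, −0.036 to 0.031 for Eif4a3l1 and −0.030 to 0.028 for Eif4e2 in thapsigargin plus forskolin, against DMSO. For thapsigargin plus forskolin against thapsigargin it gave −0.038 to 0.028 for Eif2s2, −0.042 to 0.172 for Eif2s3y, −0.047 to 0.045 for Eif2b2, −0.051 to 0.013 for Eif4a1, −0.064 to 0.152 for Eif4a3, −0.023 to 0.099 for Eif4ebp2 and −0.098 to 0.016 for Eif1-ps3. The causes were not tested. Signal over background was not checked, which limits Eif2s3y, Eif2c5 and Eif4e1b, the 3 genes below the median level.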
